A study of Mus musculus with 4 samples.

Results

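The cells described here are the T cells of adult mouse epidermis, read in 4 single-cell RNA sequencing libraries, 1 per group. A cell barcode was taken as a T cell when it held 1000 or more gene UMIs (1368 at 1 day, the lowest count listed in the experimental library) and 15% or fewer mitochondrial UMIs. It also had to hold 3 or more UMIs of Cd3e, Cd3g, Cd3d and Trdc together, from at least 2 of these genes, no UMI of the Langerhans cell gene Cd207, and fewer than 50 Krt5 and Krt14 UMIs per 10,000. Each UMI, a random barcode added to a transcript before amplification, counts as 1 molecule. The rule found 888 cells among 93642 barcodes that passed the UMI and mitochondrial limits, of 109216 barcodes in all: 325 in the 1-day control, 222 in the 1-day experimental, 217 in the 1-week control and 124 in the 1-week experimental library. The rule was applied to these same counts, so the levels of its genes are given below as a description.

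Control mice were DNp63fl/fl and experimental mice were DNp63fl/fl;K14-CreT2, in which Cre under the keratin 14 promoter deletes the floxed ΔNp63 isoform of p63 in basal keratinocytes. T cells do not use this promoter, and deletion in single cells was not examined. Both genotypes received 200 mg/kg tamoxifen by gavage on 5 successive days, and epidermis was taken 1 day or 1 week after ablation. The animals, males and females, were aged 2 to 17 months. The skin was digested in 0.25% trypsin overnight at 4 °C or for 2 hours at 37 °C, and the labels do not tie an age, a sex, an animal or a digestion to a library. The 1-day libraries used a 3′ kit (version 3.1) and the 1-week libraries a 5′ kit (version 1.1), so control and experimental libraries were set side by side within a time point only. With 1 library per group there is no replicate check and no test, and every interval below is a 95% interval that covers counting error only.

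Mouse epidermis houses a resident population called dendritic epidermal T cells. They carry a γδ T cell receptor of nearly uniform sequence, seed the skin before birth, sit among basal and suprabasal keratinocytes, and are known for sensing keratinocyte stress and for releasing growth factors and cytokines near wounds. Smaller numbers of αβ T cells, among them CD8 resident memory cells, can also reside there.

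The receptor of the dendritic epidermal T cell is built from the variable segments that the annotation names Trdv4 (δ chain) and Tcrg-V5 (γ chain). Their germline exons are shown because the presence of these transcripts splits the selected cells in the results that follow. The sequences are from GENCODE release M21 on mouse build GRCm38, plus strand, and are the coding part of the variable exon, at chr14:54075217-54075515 for Trdv4 (299 bases) and chr13:19192428-19192725 for Tcrg-V5 (298 bases). Capitals run from the codon of the conserved cysteine that opens the third complementarity-determining region to the end of the germline exon, 15 bases in Trdv4 and 17 in Tcrg-V5.
Trdv4: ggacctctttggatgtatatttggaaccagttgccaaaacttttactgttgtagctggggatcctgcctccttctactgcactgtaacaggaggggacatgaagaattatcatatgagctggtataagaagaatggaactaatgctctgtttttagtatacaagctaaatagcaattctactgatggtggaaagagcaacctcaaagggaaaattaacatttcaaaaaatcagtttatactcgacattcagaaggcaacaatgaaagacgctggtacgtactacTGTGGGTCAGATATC
Tcrg-V5: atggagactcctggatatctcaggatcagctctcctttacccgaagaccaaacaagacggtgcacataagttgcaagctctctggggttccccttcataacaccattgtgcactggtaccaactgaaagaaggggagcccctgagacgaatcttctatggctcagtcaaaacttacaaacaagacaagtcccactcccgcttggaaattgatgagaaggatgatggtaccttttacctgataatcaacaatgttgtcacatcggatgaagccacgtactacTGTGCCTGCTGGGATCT

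The selected cells carried the transcripts of T cells. Beside all other barcodes that passed the limits, the 15 genes with the largest lowest fold over the 4 libraries were Cd3g, Tcrg-C1, Tcrg-C4, Cd3e, Cd3d, Trdc, Ctsw, Prf1, Skap1, Nkg7, Ctla2b, Trdv4, Calca, Ptprcap and Nrgn. The lowest fold was 128 for Cd3g, a chain of the CD3 complex, 125 for Tcrg-C1, a γ chain constant gene, 97.2 for Prf1, which encodes perforin, and 78.0 for Nrgn. Cd3g, Cd3e, Cd3d and Trdc belong to the rule, so their folds describe the selection. Of 7 T cell markers outside the rule, 3 or more were seen in 54.8% of cells in the 1-day control, 27.5% in the 1-day experimental, 78.3% in the 1-week control and 79.0% in the 1-week experimental library. None of the 7 was seen in 14, 52, 3 and 2 cells of these libraries. The label of T cell therefore rested on fewer transcripts in the 1-day experimental library, where the median sum of the 4 rule genes was 6 UMIs per cell against 16 in its control, 23 in the 1-week control and 17 in the 1-week experimental library. Cells just inside the limit, with exactly 3 marker UMIs, numbered 13, 38, 14 and 4, and cells just outside it, with 2 UMIs from 2 genes, numbered 24, 49, 2 and 4.

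Keratinocyte RNA and depth differed across the libraries. Median depth was 2015 and 3465.5 UMIs per T cell in the 1-day control and experimental library and 2092 and 2035.5 at 1 week. Over 13 keratinocyte markers outside the rule, the median was 60.9 UMIs per 10,000 in the 1-day control (interquartile range 41.1 to 245), 275 in the 1-day experimental (132 to 445), 5.66 in the 1-week control (0 to 12.2) and 6.37 in the 1-week experimental library (0 to 13.6). Langerhans-like cells, with 2 or more Cd207 UMIs and none of the 4 T cell genes, showed the same order at 39.0, 227, 2.91 and 6.67. Over all barcodes that passed the limits the medians were 313, 362, 399 and 347, so the 1-day experimental T cells lay nearest to their library. Whether some of these cells are keratinocyte barcodes or doublets was not tested. Cells with fewer than 100 keratinocyte UMIs per 10,000, called keratin-low below, were 196 (60.3%) and 50 (22.5%) of the T cells at 1 day, and 201 (92.6%) and 111 (89.5%) at 1 week. Krt8, a keratin of simple epithelia, had no UMI in the 325 control T cells at 1 day (up to 0.923% of cells) and 285 UMIs in 85 of the 222 experimental ones. A list of 9 wound and inflammatory keratinocyte markers, among them Krt6a, Krt16, Lor and Flg, summed to 985 and 2656 CPM at 1 day, in 53.2% and 90.5% of T cells, and to 301 and 3176 CPM at 1 week, in 17 and 39 cells. Its summed level was thus higher in the experimental libraries at both times. At 1 week its median per cell was 0 in both libraries. Of its 1256 experimental UMIs at 1 week 911 were Lor, 58.8% of these in 1 cell. In keratin-low cells at 1 week Lor had 6 and 4 UMIs. Krt8 was also at 1.31 and 236 CPM (counts per 1000000 gene UMIs) in Langerhans-like cells of the same libraries. Most ratios at 1 day are therefore given beside those of the keratin-low cells, a limit chosen after the data were seen. The part of keratinocyte RNA in the 1-day ratios was not tested beyond that. Markers of other cell types were seen in part. Of 10 Langerhans cell markers 9, 9, 9 and 8 were detected in the 1-day control, 1-day experimental, 1-week control and 1-week experimental T cells, with Cd207 at 0 by the rule. They summed to 1542 and 2144 CPM at 1 day, in 79.1% and 91.0% of cells, and to 1107 and 1328 CPM at 1 week, in 58.5% and 47.6% of cells. Of 10 macrophage markers 6, 3, 2 and 1 were detected in these libraries (9.70 to 21.3 CPM summed, Adgre1 and Fcgr1 at 0), of 8 mast cell markers 1, 0, 2 and 1 (0 to 27.8 CPM, Mcpt4 at 0) and of 6 melanocyte markers 3, 0, 0 and 0 (0 to 4.97 CPM, Mlana and Sox10 at 0). The 8 NK cell markers summed to 93.1 and 90.2 CPM at 1 day and 460 and 362 at 1 week, in 30.2%, 20.7%, 47.5% and 50.0% of cells. This list includes Prf1 and Gzma, which T cells also express, while Eomes and Klra4 were at 0, and Ncr1 and Klra8 had 1 and 5 UMIs in the 1-week experimental cells and none in the other libraries. The 7 B cell markers summed to 36.2, 21.3, 147 and 93.6 CPM in 14.2%, 8.56%, 28.6% and 22.6% of cells, nearly all of it Ighm, with Ms4a1 and Pax5 at 0. Their part in the results was not tested. Summed fibroblast markers were at 147 and 17.5 CPM at 1 day and 13.5 and 412 at 1 week, in 5, 4, 7 and 3 cells.

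**Figure D1:**
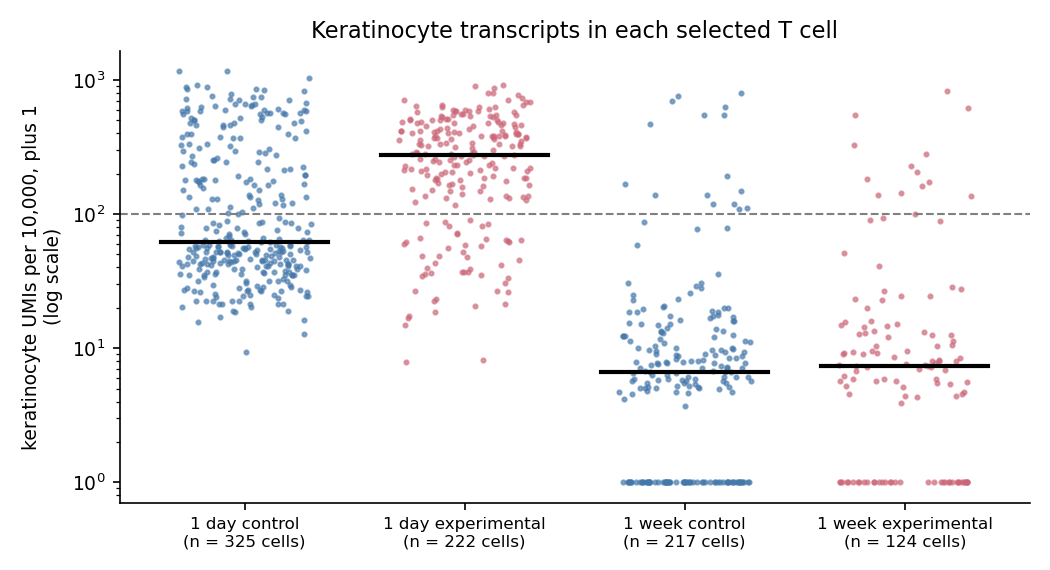
Keratinocyte UMIs (13 markers) per 10,000 gene UMIs plus 1, on a log axis, with 1 point per selected T cell, horizontal bars at the library medians and the dashed line at the keratin-low limit of 100. The 1-day experimental cells had a median of 275 against 60.9 in their control, while the 1-week medians were 5.66 and 6.37.

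T cells made up a smaller share of the barcodes in both experimental libraries. At 1 day they were 325 of 28136 barcodes in the control, 1.16% (1.03 to 1.29), and 222 of 31862 in the experimental library, 0.697% (0.608 to 0.794). The difference was -0.458 percentage points (-0.615 to -0.305). At 1 week they were 217 of 15318, 1.42%, and 124 of 18326, 0.677%, a difference of -0.740 points (-0.967 to -0.522). Where a minimum of 2000 UMIs was set in both libraries, the shares were 0.628% and 0.628% at 1 day (difference -0.000798, interval -0.137 to 0.135) and 1.17% and 1.01% at 1 week (-0.162, interval -0.479 to 0.177). With every barcode thinned to the UMI minimum the 1-day shares were 0.885% and 0.320%, a wider gap. Thinning takes more UMIs from the 1-day experimental T cells, which were deeper (median 3465.5 against 2015 UMIs). They also held fewer marker UMIs (median 6 against 16). Whether the wider gap comes from this was not tested. The lower share thus held at the low UMI minimum and was not detectable among barcodes of 2000 or more UMIs. A share of barcodes also moves with how many keratinocytes were recovered. Langerhans-like cells went from 483 (1.72%) to 1086 (3.41%) at 1 day and from 129 (0.842%) to 83 (0.453%) at 1 week.

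**Figure D2:**
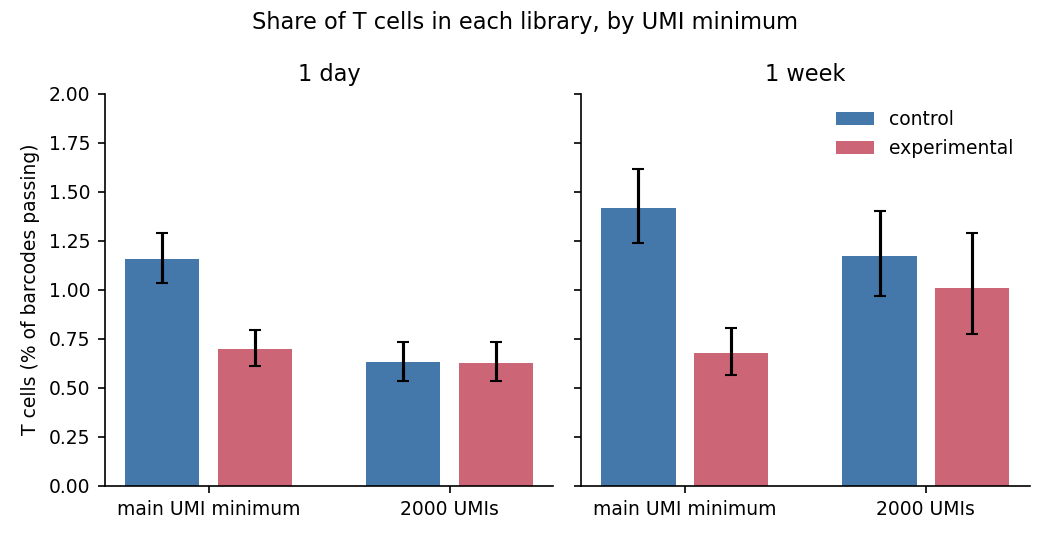
T cells as a percent of barcodes that passed the limits in each library, with exact 95% binomial intervals, under the main UMI minimum and under 2000 UMIs. The experimental bars are lower under the main minimum, 0.697% against 1.16% at 1 day and 0.677% against 1.42% at 1 week, and the intervals overlap under 2000 UMIs.

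The γδ receptor of dendritic epidermal T cells was the most frequent receptor in the 1-week cells. A UMI of Trdv4 or Tcrg-V5 was found in 154 of 217 control cells at 1 week, 71.0% (64.4 to 76.9), and in 81 of 124 experimental cells, 65.3% (56.3 to 73.6), beside 0.775% and 0% (up to 3.61%) of Langerhans-like cells. The intervals of both libraries overlap. At 1 day the shares were 58.2% (52.6 to 63.6) and 28.4% (22.5 to 34.8), and in keratin-low cells 63.3% and 38%. With each cell thinned to the UMI minimum, the 1-day shares were 40.9% and 16.2% and the 1-week shares 69.1% and 60.5%. Thinning makes total UMIs equal but not the part that is T cell RNA. The thinned 1-day shares are thus not matched for T cell transcripts. Tcrg-V5 was read in 22 and 8 cells at 1 day against 147 and 71 at 1 week, so the 1-day shares rest mainly on Trdv4. Kit and time point cannot be told apart. Other γ variable segments were rare. Tcrg-V4 was found in 9 and 3 cells at 1 week, Tcrg-V6 in 6 and 2, and Tcrg-V1 in 7 and 4.

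Constant genes of the γδ receptor were also seen in a smaller share of experimental cells at both times, with a 1-week interval that includes 0. Cells with any γδ constant transcript (Trdc or Tcrg-C1 to Tcrg-C4) were 90.8% and 75.2% at 1 day, a difference of -15.5 points (-22.2 to -9.18), and 76.0% and 67.7% at 1 week, a difference of -8.29 points (-18.4 to 1.44). In thinned cells the differences were -23.5 points (-31.3 to -15.4) at 1 day and -16.6 (-27.1 to -5.69) at 1 week. Trdc is part of the rule and could favour γδ cells. With Cd3e, Cd3g and Cd3d alone as markers, the difference was -21.7 points at 1 day and -8.60 at 1 week. Any αβ constant transcript (Trac, Trbc1 or Trbc2) was in 65.5% and 54.1% of cells at 1 day, a difference of -11.5 points (-19.7 to -3.14), and in 58.1% of both libraries at 1 week. Thinned cells gave 48.6% and 30.2%, then 34.1% and 33.9%, and keratin-low cells 64.3% and 70.0% at 1 day. With 2 or more αβ UMIs required the shares were 38.2% and 23.9% at 1 day (-14.3 points, -21.7 to -6.38). At 1 week they were 28.1% and 39.5% (11.4 points, 1.08 to 21.8). Trbc2 was also in 10.8% and 4.33% of Langerhans-like cells at 1 day. Cells with an αβ and no γδ constant transcript were 8.0% and 16.7% at 1 day, a difference of 8.67 points (3.12 to 14.7). Among keratin-low cells at 1 day they were 8.67% and 30.0%, 21.3 points (9.43 to 35.4). At 1 week they were 13.4% and 21% of all selected cells, 7.60 points (-0.498 to 16.5), an interval that includes 0. After thinning these αβ-only shares were 11.4% and 13.1% at 1 day (1.68 points, -3.78 to 7.57). At 1 week they were 12.4% and 14.5% (2.07 points, -5.13 to 10.2), and both intervals include 0. With 2 or more UMIs required for a class, the αβ-only difference was 3.83 points (-1.44 to 9.57) at 1 day. At 1 week it was 11.3 points (3.5 to 19.9), an interval that excludes 0. Trac, the α chain constant gene, was seen in 12.0% and 13.1% of the 1-day cells, in 14.3% (28 of 196) and 32.0% (16 of 50) of the keratin-low ones, and in 19.4% and 22.6% of the 1-week cells. Cd8a or Cd8b1, the chains of the CD8 coreceptor, was seen in 4.62% and 7.21% at 1 day and 13.8% and 14.5% at 1 week, and in 22.0% of the 50 keratin-low experimental cells at 1 day against 5.61% of the 196 in the control. In thinned cells Trac was at 9.85% and 8.56% at 1 day and 11.1% and 13.7% at 1 week, and CD8 at 2.77% and 4.50%, then 11.5% and 10.5%. Cd4 was found in 2 cells of each library at 1 day, then in 6 and 3 cells, at or below its share in Langerhans-like cells at 1 week (10.9% and 4.82%). Trbc1 or Trbc2 transcripts together with γδ ones were common (187, 83, 97 and 46 cells held both an αβ and a γδ constant transcript). Whether such cells are doublets was not tested.

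**Figure D3:**
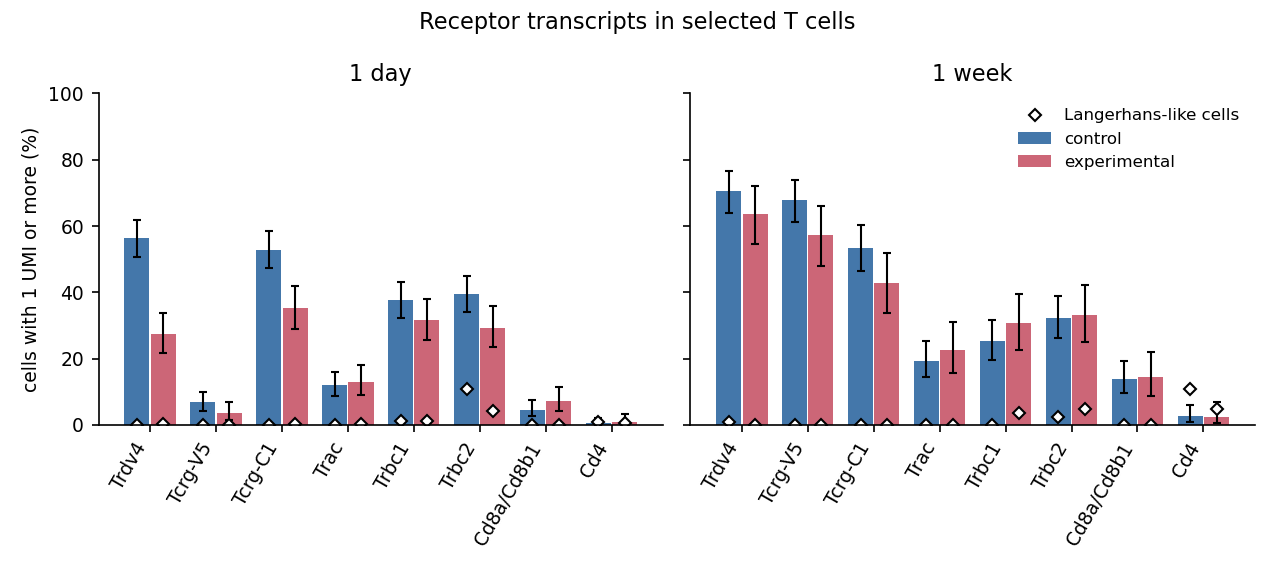
Percent of selected T cells with 1 or more UMIs of each receptor or coreceptor gene, with exact 95% binomial intervals, and open diamonds for Langerhans-like cells of the same library. Trdv4 was in 56.3% and 27.5% of cells at 1 day and in 70.5% and 63.7% at 1 week, while Trac was in 12.0% and 13.1%, then 19.4% and 22.6%. In keratin-low cells at 1 day, which are not drawn, Trac was in 14.3% and 32.0%.

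Splitting the 1-week cells by these variable segments, a split chosen after values were seen, gave sets of cells that differed in CD8 transcripts and in several other genes. Cells with a Trdv4 or Tcrg-V5 UMI, called V-segment cells below, held no Cd8a, Cd8b1 or Cd4 UMI in either library (0 of 154 and 0 of 81 cells, which allows up to 1.95% and 3.70% of cells with a UMI and sets no limit on cells that express these genes). Of the remaining cells, 30 of 63 in the control (47.6%) and 18 of 43 in the experimental library (41.9%) held a CD8 transcript, and 33.3% and 41.9% held Trac. V-segment cells held Trac too, in 13.6% and 12.3%, and an αβ constant transcript of any kind was in 56.5% and 49.4% of them against 61.9% and 74.4% of the others. At 1 day CD8 transcripts were in 3 of 189 and 0 of 63 V-segment cells and in 8.82% and 10.1% of the others. Ccl5, a chemokine of memory CD8 T cells, had 0 and 0 UMIs in V-segment cells and 397 and 151 in the others. Gzmb (granzyme B) had 1 and 0 against 80 and 29, Icos, a costimulatory receptor, 1 and 1 against 136 and 112, and Ccr8, a skin homing receptor, 2 and 1 against 49 and 68. Col27a1, a collagen chain, and Avil, an actin-binding protein, lay wholly on the V-segment side, with 146 and 37 and with 178 and 45 UMIs against 0 and 0.

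Between control and experimental T cells, 5455 genes had 50 or more UMIs over both 1-day libraries. Of these, 166 (3.04%) were past 2-fold higher and 200 (3.67%) past 2-fold lower in the experimental cells, 6.71% in all. At 1 week 3335 genes were compared, with 134 (4.02%) higher and 134 (4.02%) lower, 8.04% in all. Levels are CPM over the selected cells, and ratios are log2 of experimental over control, with exact conditional intervals. Over all compared genes the median log2 ratio was -0.06 at 1 day and -0.00 at 1 week, with 44.7% of genes higher in the experimental cells and 55.3% lower at 1 day. The shares at 1 week were 49.2% and 50.8%.

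Most of the highest ratios belonged to genes of keratinocytes. Krt8, Sprr2d, Lce1c, Ly6c1, Lce1a2, Sprr2f, Lce1m, Elf3, Lce1a1 and Slpi led at 1 day, and Lor, Ereg, Slurp1, Flg2, Ly6m, Flg, Selp, Dcn, Ccl7 and Hrnr at 1 week. The Sprr, Lce, Flg and Lor genes encode proteins of the cornified envelope and the granular layer. Several rested on single cells: 97.1% of the 136 experimental Lce1c UMIs came from 1 cell, as did 58.8% of the 911 Lor UMIs at 1 week, all 60 Selp UMIs and 96.7% of the Dcn UMIs. Among the lowest at 1 day, Col3a1, Col1a1 and Col1a2 had 95.1%, 98.4% and 95.8% of their control UMIs in 1 cell. At 1 week Klk10 had all 109 control UMIs in 1 cell, and 2310046K23Rik had 94.3% of 488. The other genes with the lowest ratios were Serpinb12, Ttk, Tnfsf8, Mt4, Npl, Arl2bp and Col27a1 at 1 day and Igfbp3, Gzma, Tnfrsf13b, Romo1, Clca3a2, Cdh17, Trp63 and Trbv15 at 1 week. In control T cells Serpinb12, Ttk, Mt4 and Npl stood at 1.06, 1.23, 0.942 and 1.00 times their level in all other barcodes. Ratios in those other barcodes were -3.39, -2.64, -2.71 and -1.65. Igfbp3, Clca3a2 and Trp63 stood at 0.102, 0.223 and 0.208 times, with -3.65, -1.94 and -1.58 in the others. Arl2bp and Romo1 stood at 4.30 and 1.43 times, and the remaining genes at 118 times or more.

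Receptor and signalling genes were lower at 1 day for nearly all of their list and mixed at 1 week. T cell markers as a whole were lower too. Sums of 11 T cell markers, 4 of them in the rule, had log2 ratios of -1.14 at 1 day and -0.48 at 1 week. Sums of 12 epidermal γδ T cell markers, Trdc among them, had -1.28 and -0.46. Whether the ratios of single T cell genes here and below differ from these was not tested. Of 19 compared members of the CD3 and receptor signalling list, outside the rule genes, 18 were lower and 1 higher at 1 day, where 55.3% of all compared genes were lower (median log2 -0.91, 8 past 2-fold lower). Of 10 compared in keratin-low cells 9 were lower (median -0.45), beside 59.2% of the 1559 genes compared there (median -0.11). At 1 week 11 of 21 were lower (median -0.01), beside 50.8% of all. Trdv4 had 359 and 91 UMIs in the 1-day control and experimental cells (255 and 88.3 CPM, log2 -1.53, interval -1.88 to -1.19, keratin-low -1.13), and 1316 and 445 at 1 week (2225 and 1125, log2 -0.98, -1.14 to -0.83). Tcrg-V5 had 622 and 233 UMIs at 1 week (log2 -0.84, -1.06 to -0.62). Tcrg-C1 was at 289 and 117 UMIs at 1 day (-0.86, keratin-low -0.41, interval -0.92 to 0.06), then 239 and 96 at 1 week (-0.74). At 1 day the αβ chain genes were lower too, with Trac at -0.30 (-0.92 to 0.32), Trbc1 at -0.71 and Trbc2 at -0.73, but at 0.99, -0.20 and 0.64 in keratin-low cells. At 1 week they lay above 0, by little, when Trac was at 63 and 45 UMIs (0.10), Trbc1 at 76 and 61 (0.26) and Trbc2 at 101 and 72 (0.09). At 1 day 3 of 3 compared γδ receptor genes (median -0.86) and 3 of 3 αβ receptor and coreceptor genes (median -0.71) were lower, and at 1 week 4 of 4 and 2 of 5. Fcer1g, a signalling adaptor that γδ receptors of the skin can use, was at 1242 and 334 UMIs at 1 day (log2 -1.45, keratin-low -1.05), then 1131 and 582 at 1 week (-0.38). Cd247, the ζ chain, was at -1.48 at 1 day (keratin-low -0.77) and -0.43 at 1 week. Lck and Zap70, the kinases next to the receptor, were at -1.06 and -1.24 at 1 day, -0.13 and -0.18 in keratin-low cells, and -0.03 and -0.14 at 1 week. Ptpn22, a phosphatase that restrains receptor signals, was at -0.88 and -0.69, and at -0.38 (-0.94 to 0.16) in keratin-low cells at 1 day.

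Surface receptors included genes on both sides. Cd7, a surface protein of T and NK cells, was at 737 and 227 UMIs at 1 day (log2 -1.25, keratin-low -0.66), then 1952 and 1054 at 1 week (-0.31). Cd96, an NK and T cell adhesion receptor, was at -0.82 at 1 day, 0.01 in keratin-low cells, and -1.04 (154 and 50 UMIs) at 1 week. Lag3, an inhibitory receptor, was at -1.29 and -0.98 (keratin-low -0.34 at 1 day, from 24 and 5 UMIs), and Tigit, another one, at 62 and 79 UMIs at 1 week (0.93, 0.43 to 1.43), with 0 and 1 UMIs at 1 day. Ly6a, the interferon-responsive Sca-1 antigen, was at 88 and 286 UMIs at 1 day (2.15, keratin-low 1.21), then 71 and 101 at 1 week (1.09, keratin-low 1.48). Langerhans-like cells showed Ly6a ratios of 2.33 and 2.03, so its higher level was shared with another cell type of the same libraries. In the 1-week cells with γδ and no αβ constant transcript the Ly6a ratio was on the lower side, at -0.92. Of 14 surface and costimulation genes, 11 were lower at 1 day (median -0.74, keratin-low -0.07), and 7 of 18 at 1 week (median 0.06), beside 55.3% and 50.8% of all compared genes.

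Among secreted factors, Xcl1, a chemokine that draws cross-presenting dendritic cells, was lower at both times over all selected cells. It had 713 and 162 UMIs at 1 day (506 and 157 CPM, log2 -1.69, keratin-low -1.29), then 843 and 361 at 1 week (1425 and 913, log2 -0.64, -0.82 to -0.46), 23.3% of the latter UMIs in 1 cell. Without the highest cell of each library the 1-week ratio was -0.93. At 1 week Xcl1 was lower in V-segment cells but higher in the remaining cells, with the UMIs given below. It was seen in 60.9% and 31.1% of the 1-day cells and in 65.0% and 46.8% of the 1-week cells, beside at most 0.621% of Langerhans-like cells, and after thinning in 46.5% and 17.6%, then 50.2% and 37.1%. Areg, an epidermal growth factor receptor ligand tied to tissue repair, was at 1682 and 737 UMIs at 1 day (-0.74, keratin-low -0.84), then 964 and 397 at 1 week (-0.70). In Langerhans-like cells Areg was at 2.35 and 0.95, the opposite side, at levels of 45.5 and 233 CPM at 1 day against 1195 and 715 in T cells. Hbegf, a related ligand that keratinocytes also make, was higher (2.06 and 2.30), but at 0.51 in keratin-low cells at 1 day, at 2.57 and 2.56 in Langerhans-like cells, and with 51.0% of its 102 UMIs in 1 cell at 1 week. Tnfsf8, the CD30 ligand, was at 56 and 8 UMIs at 1 day (-2.36, keratin-low -1.99), then 64 and 26 at 1 week (-0.72). Ccl5 was at 20 and 44 UMIs at 1 day (1.59, keratin-low 2.75), then 397 and 151 at 1 week (-0.81), opposite signs at the 2 times. In 1-day cells with γδ and no αβ constant transcript, which hold only part of those few UMIs, it was at -2.01.

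Cytotoxic genes were lower at 1 day in 9 of 10 compared members, beside 55.3% of all compared genes (median -0.76, keratin-low 5 of 9 and -0.14), and higher at 1 week in 7 of 11, beside 49.2% (median 0.09). Nkg7, a granule membrane protein, was at 853 and 285 UMIs at 1 day (-1.13, keratin-low -0.53), then 1112 and 565 at 1 week (-0.40). Prf1 was at -0.88 and 0.09, and Ctsw, cathepsin W, at -0.90 and 0.28. In keratin-low cells at 1 day they were at -0.42 (-1.23 to 0.32) and -0.17 (-0.56 to 0.20), intervals that include 0. Gzmc was at 170 and 817 UMIs at 1 week (2.85), of which 81.4% of the experimental UMIs came from 1 cell, and without the highest cell of each library the ratio was 1.05. Gzma had 73 and 0 UMIs at 1 week, with 80.8% of the control UMIs in 1 cell. Against a floor of 3 counts in the experimental library, the summed level was lower by a bound of 16.3-fold. Without the highest cell of each library this bound was at log2 -1.64. The UMIs came from 3 of 217 control cells, 1.38% (0.286 to 3.99), against 0 of 124 experimental cells (0 to 2.93%). These intervals overlap, so no difference in the share of Gzma cells was detectable. Fasl, the Fas death ligand, was at 6 and 28 UMIs at 1 week, seen in 6 and 23 cells (log2 2.80, 1.5 to 4.37), with 13 and 4 UMIs at 1 day, too few at either time for the counts of compared genes.

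Of the T cell transcription factors, 13 of 17 were lower at 1 day, beside 55.3% of all compared genes (median -0.29, keratin-low -0.15), and 9 of 20 at 1 week, beside 50.8% (median 0.04). Gata3, a factor of γδ and helper T cells that keratinocytes also express, was at 64 and 13 UMIs at 1 week (-1.72, keratin-low -1.18) and at -0.16 at 1 day (keratin-low 0.45). Tox, a factor of long-lived T cells, was lower at both times (98 and 35 UMIs, -1.04, then 90 and 29, -1.05), but at -0.15 in keratin-low cells at 1 day. Bcl2, which blocks cell death, was at 141 and 45 (-1.20, keratin-low -0.60) and 111 and 34 (-1.13, keratin-low -0.84). Prdm1 was higher (1.79 and 2.20), yet in keratin-low cells it had 3 and 0 UMIs in the 1-day libraries and 2 and 6 in the 1-week ones. Of the activation-induced genes, 15 of 22 were higher at 1 day (median 0.63, keratin-low 0.37) and 18 of 23 at 1 week (median 0.36), beside 44.7% and 49.2% of all compared genes. Of the AP-1 and stress genes, 20 of 35 were higher at 1 day (median 0.07, keratin-low 0.25) and 26 of 34 at 1 week (median 0.22), and 25 of 33 in the 1-week V-segment cells (median 0.23), beside 49.4% of all genes compared in those. Nr4a1, induced by receptor signals, was at 0.88 and 0.86, Nfkbia, the NF-κB inhibitor, at 0.80 and 0.78, and Nfkbiz at 0.99 and 0.92, and all of them were above 0 in keratin-low cells too (0.58, 0.99 and 1.48 at 1 day, 1.08, 1.07 and 0.67 at 1 week). In Langerhans-like cells Nr4a1 was at 0.74 and -0.11 and Nfkbia at 0.29 and 0.42. Phlda1 turned from 1.44 and 1.78 to 0.20 and -0.67 in keratin-low cells. Of 40 interferon-stimulated genes only 13 had enough UMIs at 1 day, and 10 of these were lower (median -0.43), beside 55.3% of all compared genes. At 1 week 5 of 10 were lower and 5 higher (median 0.01), beside 50.8% lower among all compared genes.

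**Figure D4:**
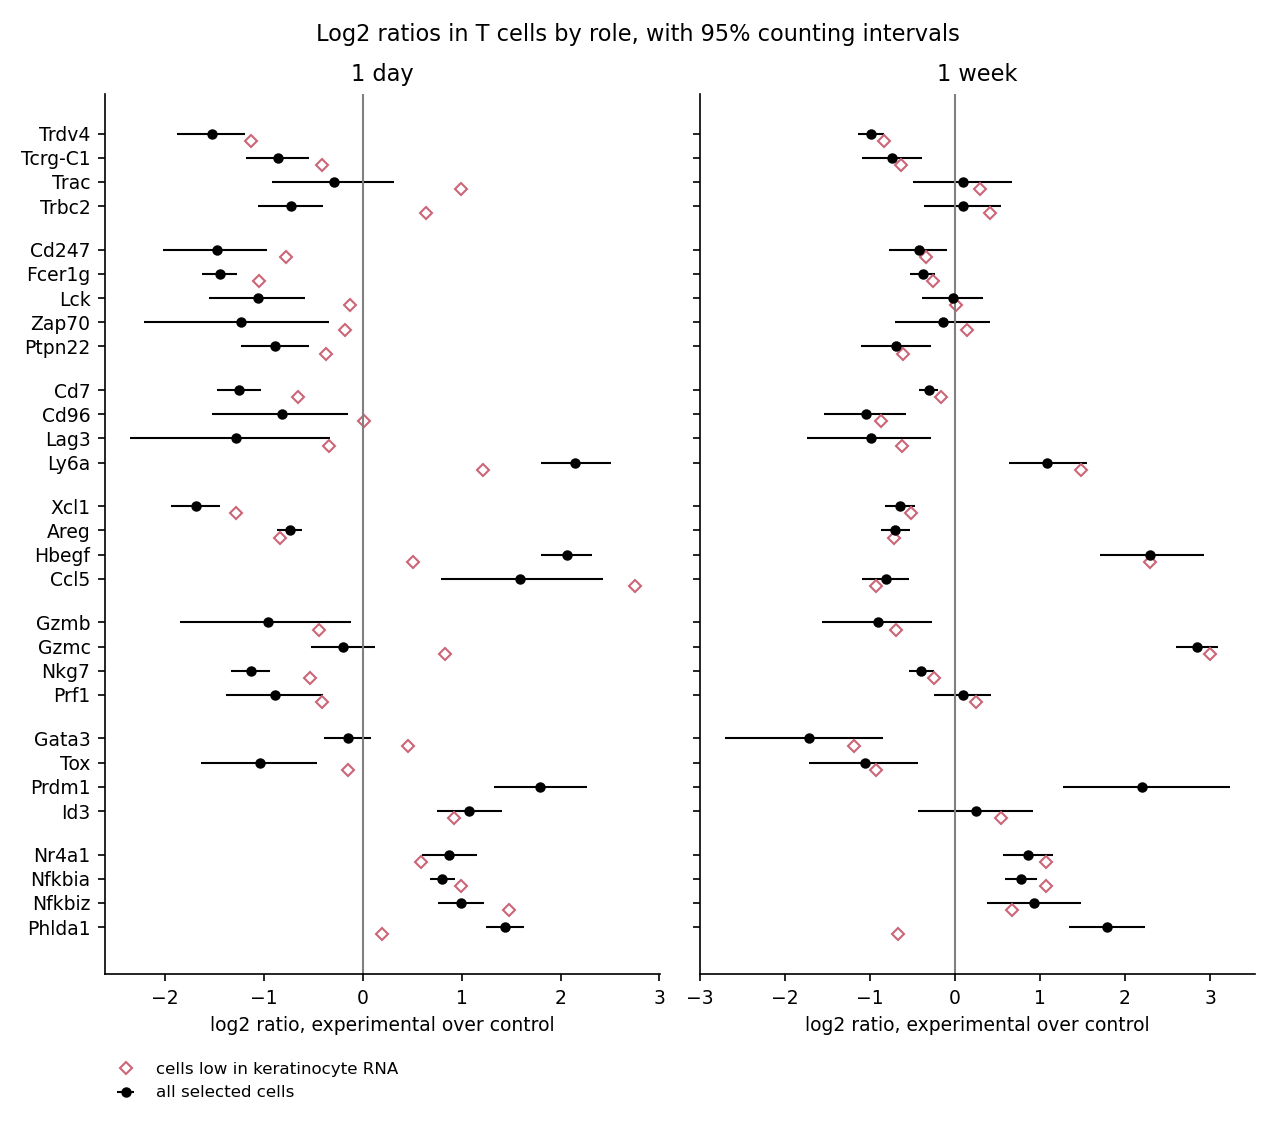
Log2 ratios of experimental over control T cells for 29 genes grouped by role, with 95% counting intervals (black), and the ratio in keratin-low cells (open diamonds, no interval, shown with 10 or more UMIs and none at 0). The signalling genes lie between -0.88 and -1.48 at 1 day and nearer 0 in keratin-low cells, while Trdv4, Xcl1 and Areg are below 0 at both times and in both selections.

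A set of genes was past 2-fold lower at both times with intervals that exclude 0: 22 genes, 15.5% of 142 at 1 day and 18.0% of 122 at 1 week, among 3175 genes compared at both. The time points share no library. The first 15 by size were Pltp, Clca3a2, Tnfrsf13b, Adora3, Trmt61b, Col27a1, Avil, Arnt2, AW011738, Mest, Dhrs11, Trp63, Pitpnm2, Ctnnbl1 and Usp36, and the other 7 included Bcl2 and Tox. Col27a1 had 111 and 19 UMIs in 84 and 18 cells at 1 day (log2 -2.10, keratin-low -2.70) and 146 and 37 in 86 and 27 cells at 1 week (-1.40, keratin-low -1.39). Pltp, a phospholipid transfer protein, had 75 and 15 at 1 day (-1.87, keratin-low -1.51) and 156 and 30 at 1 week (-1.80, keratin-low -1.66). Tnfrsf13b, the TACI receptor, had 126 and 29 (-1.67, keratin-low -1.55) and 74 and 8 (-2.63). Adora3, an adenosine receptor, had 72 and 18 (-1.55, keratin-low -1.11, interval -2.62 to 0.12) and 81 and 18 (-1.59). Mest had 381 and 112 (-1.32, keratin-low -1.39) and 197 and 56 (-1.23). Avil had 118 and 33 (-1.39, keratin-low -0.54) and 178 and 45 (-1.40, keratin-low -1.30). Trmt61b had 393 and 103 (-1.48, keratin-low -1.50) and 297 and 55 (-1.85), but its annotated gene lies antisense to Spdya and its reads may be shared. Trp63, the gene that holds the deleted isoform, had 307 and 98 UMIs (-1.20, keratin-low 23 and 3 UMIs, -1.02), then 52 and 8 (-2.12, keratin-low 16 and 4, -1.29), and stood at 393 CPM in the other barcodes of the 1-day control against 218 in its T cells. The source of these UMIs was not tested. Clca3a2 had 5 and 4 UMIs in keratin-low cells at 1 day. In Langerhans-like cells several of these genes were lower at both times too, with Clca3a2 at -1.91 and -1.93, Trp63 at -1.36 and -0.45, AW011738 at -1.42 and -0.63, Dhrs11 at -0.96 and -0.78, Adora3 at -0.71 and -0.60, Usp36 at -0.40 and -0.49 and Trmt61b at -0.32 and -0.88. Pltp, Tnfrsf13b and Col27a1 were scarce there, and at 1 week stood at 1.60 and 24.9, 3.21 and 14.0, and 0 and 10.9 CPM, higher in the experimental library.

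The higher genes at both times numbered 46, 70.8% of 65 and 37.4% of 123. Their first 15 were Slurp1, Ereg, Epgn, Slc6a14, Ccl7, Flg, Lor, Ly6m, Alox12b, Hbegf, Serpinb7, Klk5, Trex2, Hrnr and Crct1. Most are made by keratinocytes, and at 1 week they were seen in few T cells: Lor in 7 and 10, Crct1 in 6 and 13, Klk5 in 5 and 7. At 1 week 97.2% of the 71 experimental Epgn UMIs and 96.4% of the 112 Ccl7 UMIs came from 1 cell, and without the highest cell of each library the ratios were -0.42 and 1.00. Ccl7 was at -0.84 at 1 day in cells with Krt5 and Krt14 below 20 UMIs per 10,000.

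Within the V-segment cells at 1 week (154 and 81 cells, 437244 and 218456 gene UMIs, median keratinocyte level 5.55 and 6.33 per 10,000) the lower genes could be read without the cells that held a CD8 or Cd4 UMI. An αβ constant transcript was still in 56.5% and 49.4% of them. The sets were not matched for T cell transcripts. The median sum of the 4 rule genes was 31 and 22 UMIs per cell, and Trdc was in 90.9% and 75.3% of cells. The part of this in the ratios below was not tested. In the experimental set 1 cell held 11.0% of the UMIs, against 4.52% for the largest control cell. The split uses Trdv4 and Tcrg-V5, so their own levels there (log2 -0.56 and -0.42) are a description. Cd7 (1853 and 974 UMIs, 0.07, -0.04 to 0.19), Fcer1g (1118 and 517, -0.11, -0.26 to 0.04), Tcrg-C1 (-0.29, -0.65 to 0.06) and the residence integrin gene Itgae (192 and 94, -0.03) had intervals that include 0. Xcl1 was at 800 and 200 UMIs, in 131 and 45 cells (-1.0, -1.23 to -0.77). Over all 1-week T cells Xcl1 had 843 and 361 UMIs. The cells without a V-segment UMI, with 154235 and 177019 gene UMIs, thus held more Xcl1 in the experimental library. Areg was at 944 and 353 (-0.42, -0.60 to -0.24). Pltp was at 152 and 27 (-1.49), Trmt61b at 296 and 52 (-1.51), Tnfrsf13b at 66 and 7 (-2.24), Adora3 at 78 and 18 (-1.11), Col27a1 at 146 and 37 (-0.98) and Avil at 178 and 45 (-0.98). Ctla2b, a cathepsin inhibitor-like gene, was at 302 and 58 (-1.38), and Cdh17, a cadherin, at 74 UMIs in 42 cells against 2 UMIs in 2 cells (-4.21, -7.28 to -2.30). Over all 1-week T cells Cdh17 had 74 and 11 UMIs in 42 and 7 cells (-2.17). Most of its experimental UMIs thus lay outside the V-segment cells. Gata3, below the minimum of 50 UMIs in these cells, was at 39 and 5 (-1.96), Il12rb2, an IL-12 receptor chain, at 89 and 21 (-1.08), and Hcst, the DAP10 adaptor of NKG2D, at 60 and 12 (-1.32). Whether these ratios differ from those over all selected cells, which include the same cells, was not tested.

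On the higher side in V-segment cells stood Ifngr1, an interferon-γ receptor chain (92 and 124 UMIs in 61 and 49 cells, log2 1.43, 1.03 to 1.84), Tigit (42 and 57, 1.44), Nr4a1 (86 and 102, 1.25), the activation and retention marker Cd69 (62 and 62, 1.00), Socs1, a brake on cytokine signals (75 and 73, 0.96), and Junb (1271 and 1034, 0.70). Fasl was at 3 and 19 UMIs (3.66, 1.90 to 6.06) and Cish, a STAT5 target, at 4 and 16 (3.0, 1.37 to 5.04), both below the minimum of 50 UMIs. Of 15 compared energy metabolism genes, 8 were higher and 7 lower (median 0.26), beside 49.4% higher among all 2329 genes compared in these cells (median -0.02). The higher ones included 4 glycolytic genes, picked after their values were seen: Pgk1 (46 and 56, 1.28), Eno1 (118 and 102, 0.79), Pkm (99 and 85, 0.78) and Tpi1 (115 and 93, 0.69). In Langerhans-like cells at 1 week Pgk1, Eno1, Pkm and Tpi1 were at 1.04, 1.15, 1.00 and 0.63, also higher. Ifngr1 and Socs1 were also higher there (2.04 and 1.60). At 1 day the same genes in all T cells were at -0.06 for Pgk1, -0.05 for Eno1, 0.05 for Pkm and -0.28 for Tpi1.

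**Figure D5:**
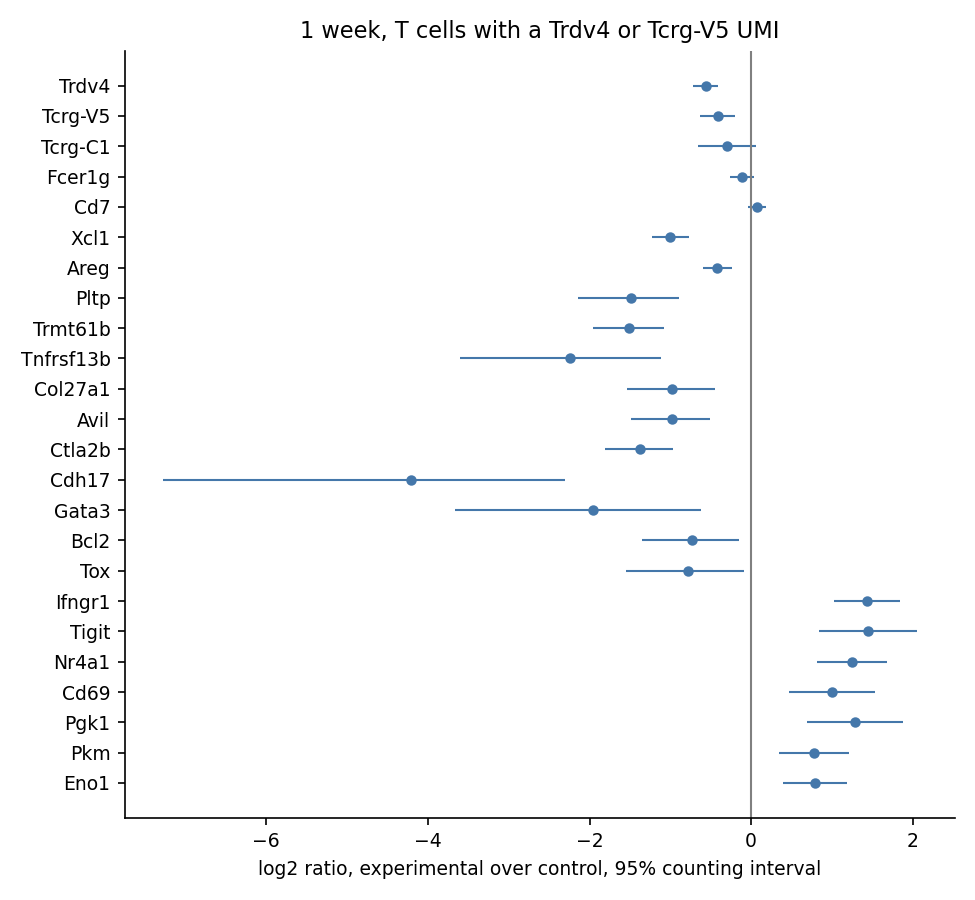
Log2 ratios of experimental over control, with 95% counting intervals, in 1-week T cells with a Trdv4 or Tcrg-V5 UMI (154 and 81 cells). Cd7, Fcer1g and Tcrg-C1 lie near 0, Xcl1, Pltp, Tnfrsf13b, Ctla2b and Cdh17 are at -1.0 or below, and Ifngr1, Tigit, Nr4a1 and Pgk1 are above 1.

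The share of cells with a G2/M call, 2 or more UMIs of the G2/M transcripts after each cell was thinned to the UMI minimum, was 16.9% (55 of 325) and 8.56% (19 of 222) at 1 day and 5.07% (11 of 217) and 4.84% (6 of 124) at 1 week. Without thinning it was 28.0% and 23.4%, and 11.1% and 14.5%. Keratin-low cells gave 25.5% and 24.0% at 1 day, so the 1-day difference of -8.36 points (-13.7 to -2.61) was -1.51 (-13.2 to 13) among them. The keratin-low cells were thinned in a separate draw, so their counts are not a subset of those above. At 1 week they gave 5.97% (12 of 201) and 1.80% (2 of 111), a difference of -4.17 points (-8.54 to 1.02). Langerhans-like cells measured the same way gave 6.0% and 9.30% at 1 day and 2.33% and 7.23% at 1 week, and the 1-week shares of T cells were within the intervals of these. Granular keratinocytes, taken as barcodes with 20 or more Lor UMIs, gave 2.09% and 1.70% at 1 day and 1.37% (3 of 219) and 18.0% (281 of 1559) at 1 week, so the G2/M call was not limited to T cells and no cycling is read from it alone. The limit of 20 Lor UMIs was not scaled to depth. Lor stood at 419 and 3708 CPM in the barcodes outside the T cells at 1 week. Barcodes taken by this limit may thus include other keratinocytes, which was not tested.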

How the data were processed

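Gene expression was measured by 10x Genomics single-cell RNA sequencing in 4 epidermis libraries, 1 per group. The values the authors deposited are raw UMI counts for every gene in every barcode, made with Cell Ranger 5.0.1 on build mm10 per the submitters' processing notes, which also name Seurat. Each matrix lists 32285 genes, and the 1-day matrices add 4 antibody tags. Barcodes were chosen by the rule given in the report, no doublet caller was run, and the deposited counts were summed over the selected cells of a library (1407712, 1030868, 591479 and 395475 UMIs, in the order 1-day control, 1-day experimental, 1-week control, 1-week experimental). Median depth was 2015, 3465.5, 2092 and 2035.5 UMIs per T cell, against 4768, 3502, 3597 and 1618 over all barcodes that passed. The deposited matrices list barcodes down to 500, 1368, 500 and 1059 UMIs. In the 2 libraries of a time point 299 (1 day) and 661 (1 week) barcodes recurred, and none was a T cell in both.

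Levels were CPM, counts per 1000000 gene UMIs. Log2 ratios have exact conditional intervals, shares exact binomial (Clopper-Pearson) intervals, and differences of shares Newcombe intervals, all at 95% and for counting error only. A gene entered the counts and list medians with 50 or more UMIs over both libraries (or both sets of cells), list members with fewer are given with their UMIs, and a library at 0 was set to 3 counts. The ratio and its interval were run on simulated sums with Poisson counts for each gene, the counting error that the interval assumes. The simulation held no clustering of UMIs in single cells, so it cannot show how the intervals hold where 1 cell gives most UMIs. Cells were thinned to the UMI minimum where stated. Python 3.11.15, numpy 2.4.6, scipy 1.17.1, statsmodels 0.14.6 and matplotlib 3.10.9 were used, with edgeR 4.0.16 in R 4.3.3 for TMM scaling as an alternative. Genes named are members of 21 fixed lists, the 10 highest and 10 lowest ratios per time point with intervals that exclude 0, up to 15 in each direction past 2-fold at both times, and the 15 leading genes of the cells. The members and lists were chosen with earlier results of these data known. The split by Trdv4 and Tcrg-V5, the keratin-low limit, the removal of the highest cell per gene and the removal of recurring barcodes were chosen after the data were seen.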

Additional observations from a re-analysis of the deposited data

Results flagged for a closer look

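The 1-day matrices carry counts of 4 antibody tags that no comparison above used, and the labels do not say what the tags mark. In the selected T cells of the 1-day control library the tags had 118063, 106148, 109645 and 38 counts. In those of the 1-day experimental library they had 42682, 76539, 39200 and 22 counts. All are above the 3 counts that a count of 0 allows, and tags 1, 2 and 3 were the abundant ones in both libraries. Among barcodes whose most abundant tag was tag 1, 2 or 3, T cells were 1.70%, 0.788% and 1.09% in the control and 1.41%, 0.457% and 1.00% in the experimental library. A tag of one library need not mark the same thing in the other, so these shares were not compared. The most abundant tag held a median of 55.3% and 50.6% of a barcode's tag counts. What the tags contribute to the T cell results was not tested.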

How the results depend on the processing

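No paired analysis was possible because each group is 1 library, and for the same reason no replicate was left out. Receptor classes rest on few transcripts per cell, and the part of depth in them was not tested. At 1 day the experimental cells had the higher median depth, 3465.5 against 2015 UMIs. They also held more cells of neither class, 8.11% against 1.23%. The cause of the shifts below was not tested except where fewer cells or genes enter.

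Of 25 recomputed T cell shares 19 stayed within the interval, among them the 1-week difference of -0.757 points with the control held to the lowest UMI count of the experimental library. The difference was -0.000798 and -0.162 points at 1 day and 1 week with 2000 UMIs, -0.844 and -1.30 with no Krt5 and Krt14 limit, and -1.48 and -1.68 as a share of barcodes below that limit. For receptor classes 30 of 40 stayed. At 1 day the difference for αβ only was 1.68 points after thinning and 21.3 in keratin-low cells. That for γδ only was 4.61 in the main setting (-3.48 to 12.8), -3.37 after thinning and -2.54 with Cd3e, Cd3g and Cd3d only. It was -5.84 with 2 or more UMIs for a class and -4.69 in keratin-low cells, so its sign differed between settings. That for neither was 21.8 after thinning, 20.1 with 2 or more UMIs and -1.02 in keratin-low cells, where its direction turned. At 1 week γδ only was at -14.3 after thinning and -19.0 with 2 or more UMIs, and neither at 14.5 after thinning. The 1-day cycling difference was -1.51 points in keratin-low cells.

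Counts of genes past 2-fold, higher then lower, were at 1 day 503 and 399 from means over cells, 330 and 492 with 20 or more UMIs, 101 and 92 with 100 or more, 2338 and 1941 with no filter, and 40 and 103 in keratin-low cells, while 101 were lower with 2000 UMIs. At 1 week they were 19 and 47 after thinning, 396 and 374 with 20 or more UMIs, 59 and 67 with 100 or more, and 2654 and 1881 with no filter, while 50 were higher in keratin-low cells and 82 in γδ-only cells. TMM scaling gave 191 and 179 at 1 day and 123 and 155 at 1 week, with the share of lower genes at 51.1% and 55.3%, and the share of lower genes in γδ-only cells at 1 week was 63.5% with a median of -0.27.

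Of 403 list medians 382 stayed. In γδ-only cells at 1 day CD3 and receptor signalling was at -1.70, surface and costimulation at -1.53, cytotoxic granule genes at -1.32, AP-1 and stress genes at -0.092, cell cycle genes at -0.77, survival and death genes at -1.01 and energy metabolism genes at 0.24. At 1 week in these cells, 1 of which held 18.8% of the experimental UMIs, CD3 and receptor signalling was at -0.66, surface and costimulation at -0.67, cytokine receptors at -0.63 and homing and residence at -0.33. Thinning gave -1.0 for surface and costimulation and -0.67 for survival and death genes at 1 day, and -0.15 for transcription factors, 0.088 for AP-1 and stress genes and 0.59 for energy metabolism genes at 1 week. Keratin-low cells at 1 day gave -0.45 for CD3 and receptor signalling, 0.25 for AP-1 and stress genes and -0.014 for cell cycle genes. With 2000 UMIs activation-induced genes were at 0.80 at 1 week, and with no filter cell cycle genes at 0.80.

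Among 2098 recomputed ratios of named genes 14 changed sign as computed, with a library at 0 set to 3 counts. In keratin-low cells Clca3a2 (1.60), Lce1m (-0.079) and Mt4 (1.18, only a bound from 5 and 0 UMIs, its level still lower) at 1 day and 2310046K23Rik (1.71) and Phlda1 (-0.67) at 1 week did so. In γδ-only cells Ccl5 (-2.01) at 1 day and 2310046K23Rik (2.80), Clca3a2 (1.95) and Ly6a (-0.92) at 1 week did. Without the highest cell 2310046K23Rik (0.10), Epgn (-0.42) and Klk10 (1.32) at 1 week, with Krt5 and Krt14 below 20 per 10,000 Ccl7 (-0.84) at 1 day, and after thinning Phlda1 (-1.04) at 1 week did. The 14 do not hold every change of sign. Trac, Trbc2 and Gata3 at 1 day were below 0 over all T cells and above 0 in keratin-low cells, as given above.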
